A study of Mus musculus with 6 samples.

Results

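The serine- and arginine-rich (SR) splicing factors were described here through 10 genes, *Srsf1*, *Srsf2*, *Srsf3*, *Srsf4*, *Srsf5*, *Srsf6*, *Srsf7*, *Srsf9*, *Srsf10* and *Srsf11*, out of the 54446 genes in the files. They were found by gene name, and all 10 were among the 14991 genes whose mean reached 1 FPKM (fragments scaled by transcript length and by the total of the library). RNA-Seq was performed on 6 libraries of total RNA from spleen CD8+ T cells of 8-week-old wild type C57BL/6 mice, isolated with a negative-selection kit, 2 libraries in each of 3 groups. Unstimulated cells were fresh cells without stimulation, Control cells had 72 h of stimulation by antibodies to CD3 and CD28 without magnets, and SMF cells had the same stimulation on permanent magnets giving a static magnetic field of 0.3 T. The comparison of SMF with Control asks what the field adds to stimulation. The comparison of Control with Unstimulated asks what 72 h of culture with stimulation does. Because the Unstimulated cells were fresh, culture and stimulation cannot be told apart. No source used here says that the 2 libraries of a group came from separate animals or cultures, so the p-values measure only the spread between these libraries, which may be technical.

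SR proteins bind short exonic sequences through RNA recognition motifs and recruit the splicing machinery through a tail of repeated arginine and serine residues. The tail is phosphorylated by the SRPK kinases in the cytoplasm and by the CLK kinases in the nucleus, and it is also the handle by which the import receptor transportin-SR carries the protein into the nucleus. Many SR proteins limit their own amount by promoting inclusion of an exon with a premature stop codon, or retention of an intron, in their own transcripts, so that the transcript is degraded by nonsense-mediated decay or held back in the nucleus. In T cells the family is known for its part in the alternative splicing of *Ptprc*, which encodes CD45.

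The exons that carry this premature stop codon mark the decay transcripts among which the FPKM of a gene was split, and 5 of them are shown here for that reason. Each was read on the strand of the gene from the first base of the exon through the stop codon, which stands in capitals, from the GENCODE M21 transcripts on GRCm38. The exon of *Srsf3* lies on the plus strand and is printed for chr17:29039454-29039487, that of *Srsf4* on the plus strand for chr4:131884276-131884390, that of *Srsf5* on the plus strand for chr12:80947116-80947130, that of *Srsf6* on the plus strand for chr2:162932815-162932966 and that of *Srsf7* on the minus strand for chr17:80205054-80205081.
Srsf3: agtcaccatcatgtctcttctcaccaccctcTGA
Srsf4: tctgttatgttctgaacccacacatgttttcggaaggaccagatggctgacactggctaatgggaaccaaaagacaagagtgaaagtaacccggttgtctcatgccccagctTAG
Srsf5: ggcttctctgtaTAG
Srsf6: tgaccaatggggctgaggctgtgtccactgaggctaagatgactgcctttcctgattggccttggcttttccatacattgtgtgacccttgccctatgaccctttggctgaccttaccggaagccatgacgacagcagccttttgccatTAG
Srsf7: gtttcttcgtttgagtcagtcgcctTGA
The exon of *Srsf3* is 456 bases long, that of *Srsf4* is 207, that of *Srsf6* is 268 and that of *Srsf7* is 460. The printed exons of *Srsf5*, of 266 bases, and of *Srsf6* overlap an exon of a coding transcript, and those of the other 3 genes do not. The *Srsf7* exon is in no transcript of the GENCODE M19 annotation used for the files, where *Srsf7* has 1 transcript, so its inclusion was not measured.

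The libraries differed in ways that bear on the members. Aligned bases, the coverage times the length summed over transcripts, came to 64.4 to 172 Mb without the field and to 227 to 259 Mb in SMF cells. Protein-coding genes took 49.1% to 50.5% of the summed FPKM in Unstimulated and Control cells and 68.7% and 69.2% in SMF cells, and antisense genes took 19.5% to 24.7% and 12.3% to 12.8%. The folder names in the file headers place Unstimulated 1 and Control 1 in June 2017, Unstimulated 2 and Control 2 in November 2017 and both SMF libraries in October 2018, so the field and the run cannot be told apart. Among CD8 T cell markers, *Cd8a*, *Cd3d* and *Trac* were called higher in SMF than in Control cells and *Cd8a* and *Cd8b1* lower in Control than in Unstimulated cells, and the 6 markers summed to 349 and 566 FPKM in Control, 854 and 950 in SMF and 658 and 784 in Unstimulated libraries. The B cell markers *Ms4a1*, *Cd79a* and *Cd79b* summed to 83.0 and 104 FPKM in the Unstimulated libraries, 7.63 and 23.3 in Control and 2.43 and 4.50 in SMF, all 3 were called lower in both comparisons with Unstimulated cells, and *Cd79a* was called lower in SMF than in Control cells. The 4 myeloid markers summed to 116 and 141 FPKM in Unstimulated, 47.0 and 53.8 in Control and 41.1 and 50.5 in SMF libraries, with *Lyz2* listed at 0 in all 4 stimulated libraries, and 2 of the 3 tested were called lower in both. Nearly all of the sums in stimulated libraries was *Csf1r*, at 47.0 and 53.8 FPKM in Control and 41.1 and 50.4 in SMF libraries. *Csf1r* was the tested myeloid marker that was not called. The 3 stimulation markers *Gzmb*, *Il2ra* and *Ifng* were called higher in both comparisons with Unstimulated cells. They summed to 25.3 and 37.2 FPKM in Unstimulated, 1799 and 1856 in Control and 2555 and 4704 in SMF libraries. *Gzmb* was also called higher in SMF than in Control cells (1.03 ± 0.32, SE), while *Il2ra* (0.82 ± 0.33, SE) and *Ifng* (0.05 ± 0.48, SE) were not. *Cd4* was at 0 to 4.68 FPKM, and of the 4 erythroid markers *Hbb-bs* and *Hbb-bt* were listed at 0 in all 6 libraries and *Alas2* was called lower in SMF than in Unstimulated cells, as was *Cd4*. The part of these differences in the values of the SR genes was not tested.

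For 3 members the files also hold genes annotated on the opposite strand, and these took most of the coverage at the bases that both share. *Gm11508*, an antisense gene, shares 98 bases with *Srsf1* (chr11:88047909-88048006). Over these bases the coverage on the strand of *Srsf1* was 7.56 and 3.93 reads per base in Unstimulated 1 and 2, 3.27 and 5.71 in Control 1 and 2 and 3.42 and 6.39 in SMF 1 and 2, while on the opposite strand it was 162, 193, 350, 804, 748 and 645 in the same order. The opposite strand thus held 21.5 to 219 times the coverage of *Srsf1*, and the bases of *Gm11508* exons clear of *Srsf1* had a coverage of 0 in all 6 libraries. *Srsf2* faces *Mettl23* over 460 bases (chr11:116849901-116850360) and *Mfsd11* over 288 bases (chr11:116852568-116852855). The coverage ratio of the opposite strand to *Srsf2* was 15.4 to 24.9 in 5 libraries and 1.28 in SMF 1 for *Mettl23*, and it was 56.7 to 104 for *Mfsd11*. Exons of *Mfsd11* clear of *Srsf2* had a mean coverage of 0.0770 to 0.181, and those of *Mettl23* 0.207 to 2.27 in 5 libraries and 51.5 in SMF 1. *Gm12992* shares 1442 bases with the last exon of *Srsf4* (chr4:131900265-131901706), with ratios of 8.01 to 13.3 in 4 libraries but of 0.133 in Control 2 and 0.0577 in SMF 1. The headers name the StringTie option --fr, which places the first read of a pair on the strand of the transcript, and the libraries were made with a stranded kit whose version is not given in the sources used here. Whether the option matches the kit was not tested. All member values below are therefore values of reads assigned to the annotated strand, and at the bases that *Srsf1*, *Srsf2* and *Srsf4* share with these genes most coverage was on the opposite strand, apart from the 2 libraries named for *Srsf4*. The other 7 members have no annotated exon facing them, so that the files show no reads of the opposite strand there.

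**Figure D1:**
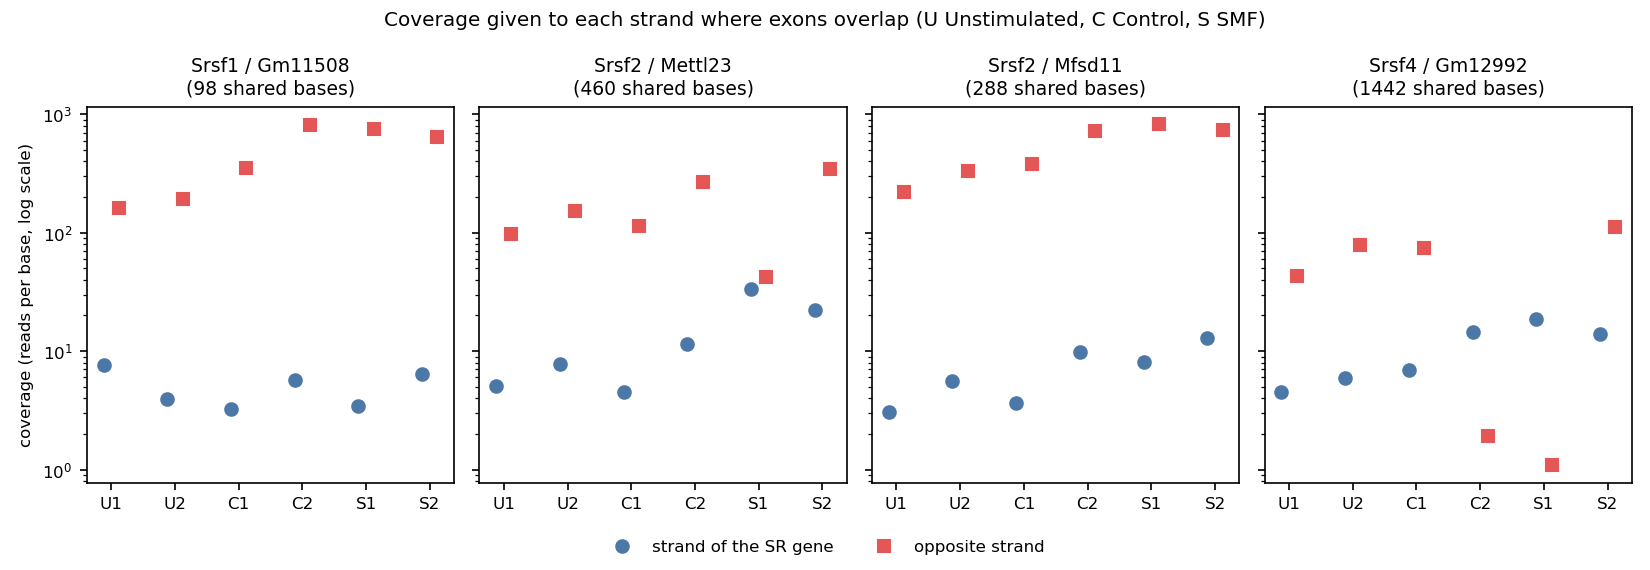
Coverage in reads per base (log scale) over the bases where an exon of *Srsf1*, *Srsf2* or *Srsf4* overlaps an exon on the opposite strand, in each of the 6 libraries (U Unstimulated, C Control, S SMF), as circles for the strand of the SR gene and squares for the opposite strand. The squares lie above the circles in every library except Control 2 and SMF 1 for *Gm12992*.

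The 10 genes differed widely in level, and their order changed between the groups. *Srsf5* had the highest mean in each group, with 308 and 138 FPKM in Unstimulated 1 and 2, 165 and 106 in Control 1 and 2 and 182 and 155 in SMF 1 and 2. *Srsf11* was second in all groups, at 102 and 95.4 FPKM in Unstimulated, 85.4 and 100.1 in Control and 156 and 155 in SMF libraries. The ranges of *Srsf5* and *Srsf11* did not overlap in Unstimulated and Control cells but did so in SMF cells. *Srsf7* was the lowest in Unstimulated and Control cells, with group means of 26.3 ± 0.691 and 23.3 ± 3.79 FPKM (SD, n = 2), and the eighth in SMF cells, with 70.7 ± 5.07 FPKM (SD, n = 2). *Srsf3* was the eighth in Unstimulated cells (37.5 ± 7.5 FPKM, SD, n = 2), the fourth in Control cells (59.4 ± 18.7) and the third in SMF cells (136 ± 5.07). Between *Srsf10* and *Srsf7* in the Unstimulated order no neighbours were apart, since the ranges of *Srsf10*, *Srsf1*, *Srsf9*, *Srsf3*, *Srsf4* and *Srsf7* each overlapped the next. In the Control order the ranges from *Srsf2* down to *Srsf4* overlapped in turn, and in SMF cells *Srsf10*, *Srsf9* and *Srsf7* did so, as did *Srsf1* and *Srsf4*. Together the members took 0.118% and 0.171% of the summed FPKM in Unstimulated, 0.104% and 0.124% in Control and 0.196% and 0.210% in SMF libraries. The values of a library with few aligned bases rest on little data: all 10 members together had 113 kb of aligned bases in Control 1 and 654 kb in SMF 1, and *Srsf9* alone had 3.98 kb in Control 1 and 30.9 kb in SMF 1.

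**Figure D2:**
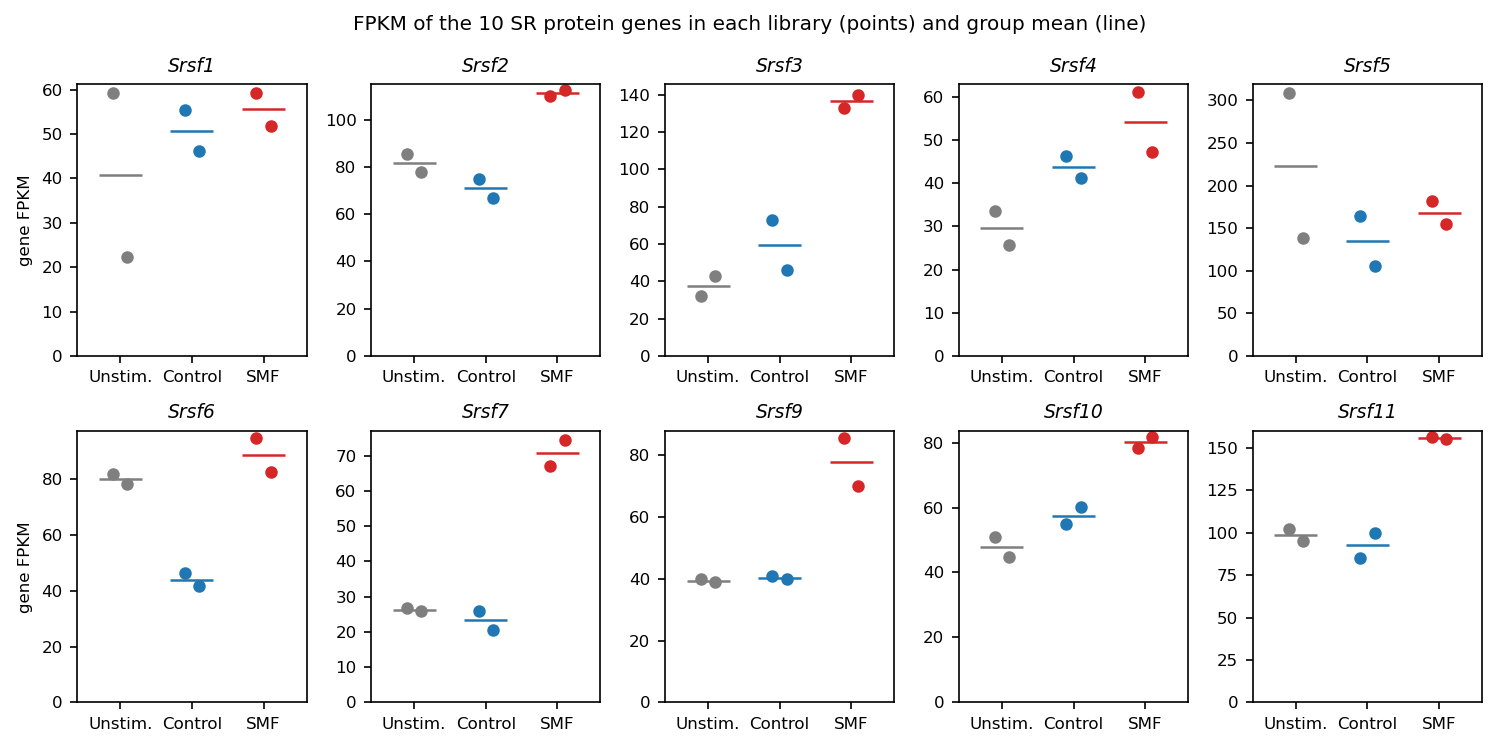
FPKM of each SR gene (vertical axis from 0, own scale for each gene) in the 2 Unstimulated, 2 Control and 2 SMF libraries as points, with the group mean as a line. Both SMF points lie above both Control points in 8 of the 10 genes, and overlap with them in *Srsf1* and *Srsf5*.

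In SMF-treated cells *Srsf3* and *Srsf7* were higher than in Control cells, and no member was lower. A gene was called when limma on log2(FPKM + 1) gave an unadjusted p up to 0.05 and the fold change reached 2, on a scale that understates the change of low genes. Of the 10 members 2 were called higher, when 12.5% of all genes tested were, and 0 were called lower, when 5.72% of all genes tested were. No member had a Benjamini-Hochberg adjusted p under 0.05, and 4 of all 14991 genes (0.0267%) had one. In all, 6 of the 10 members had an unadjusted p up to 0.05 with a positive change and 0 with a negative one, when 14% and 7.06% of all genes tested did. In 8 members the SMF libraries were both above the Control libraries, a pattern found in 37.4% of all genes tested, and in 0 they were both below, found in 17.4%. In bulk RNA, fewer cells of a type and less RNA per cell cannot be told apart.

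*Srsf7* encodes an SR protein with a zinc knuckle that also serves as an adaptor in mRNA export. It was at 26.0 and 20.7 FPKM in Control 1 and 2 and at 67.1 and 74.3 in SMF 1 and 2, so that the groups were well apart. The log2 fold change was 1.56 ± 0.29 (SE), with an adjusted p of 0.136 in limma. *Srsf3*, the smallest SR protein and an export adaptor as well, was at 72.6 and 46.2 FPKM in Control and at 133 and 140 in SMF libraries. Its log2 fold change was 1.22 ± 0.32 (SE), with an adjusted p of 0.159 in limma, and the call rested on single libraries: without Control 2 the change was 0.90, under the fold limit of 1 on this scale, and without SMF 2 it was 1.18 with an unadjusted p just past the limit. *Srsf1*, the founding member and likewise an export adaptor, overlapped between the groups, with 55.3 and 46.2 FPKM in Control and 59.3 and 51.8 in SMF libraries and a log2 fold change of 0.13 ± 0.48 (SE). On the opposite strand at *Srsf1*, *Gm11508* was listed at 929 and 826 FPKM in Control and 536 and 525 in SMF libraries, a log2 fold change of -0.72 ± 0.27 (SE, adjusted p = 0.214, limma). These values rest on the 98 bases shared with *Srsf1*, as the exons of *Gm11508* clear of *Srsf1* had no coverage. They are thus no measure of *Gm11508* apart from *Srsf1*.

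The genes of SR proteins with a pair of RNA recognition motifs and a long arginine-serine tail, *Srsf4*, *Srsf5* and *Srsf6*, differed among themselves. *Srsf6* was at 46.2 and 41.8 FPKM in Control and 94.7 and 82.6 in SMF libraries, a log2 fold change of 0.99 ± 0.25 (SE, adjusted p = 0.151, limma), just short of the fold limit of 1 on this scale. It passed that limit with gene TPM, which scales every library to the same total, in place of FPKM (1.13), with a pseudocount of 0.1 (1.01), and without SMF 2 or Control 1 (1.09 and 1.06). The change was smaller with the libraries shifted to one median (0.65), from coding transcripts alone (0.62), and without SMF 1 or Control 2 (0.90 and 0.92). *Srsf4* was at 46.4 and 41.2 FPKM in Control and 61.1 and 47.2 in SMF libraries (0.29 ± 0.31, SE). From its coding transcript alone it was called higher at 5.48 ± 1.3 (SE, adjusted p = 0.134, limma), since that transcript was listed at 0 in both Control libraries, so that this value is no measured fold. *Srsf5* overlapped between the groups and changed by 0.34 ± 0.43 (SE).

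Of the remaining members, *Srsf9*, which encodes a protein with a short tail, was at 40.8 and 39.7 FPKM in Control and 85.4 and 70.0 in SMF libraries, a log2 fold change of 0.92 ± 0.27 (SE, adjusted p = 0.169, limma). With gene TPM, and without SMF 2, it was called at 1.07. *Srsf11* was at 85.4 and 100.1 FPKM in Control and 156 and 155 in SMF libraries, a log2 fold change of 0.75 ± 0.23 (SE, adjusted p = 0.178, limma). *Srsf2*, which encodes a protein that marks nuclear speckles, was at 74.9 and 66.9 FPKM in Control and 110 and 113 in SMF libraries (0.65 ± 0.24, SE, adjusted p = 0.212, limma). *Srsf10*, whose protein represses splicing once it is dephosphorylated, was at 55.0 and 60.0 FPKM in Control and 78.4 and 81.7 in SMF libraries (0.47 ± 0.25, SE). None of these 4 reached the fold limit in the comparison as tested, although the SMF libraries lay above the Control libraries in each.

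All 10 fitted changes were above 0, as were those of 60.2% of all genes tested, but with the libraries shifted to one median *Srsf1* stood at -0.21 and *Srsf4* at -0.05. The median log2 fold change of the members was 0.70, beside 0.32 over all genes tested, and after the shift to one median it was 0.35, beside -0.02. Relative to the median of all genes, *Srsf7* was higher by 1.25 and *Srsf3* by 0.90 on the log2 scale. After the shift *Srsf7* was the member still called, with 1 of 10 in all, while over all genes the calls changed from 1868 higher and 857 lower to 877 higher and 1441 lower.

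**Figure D3:**
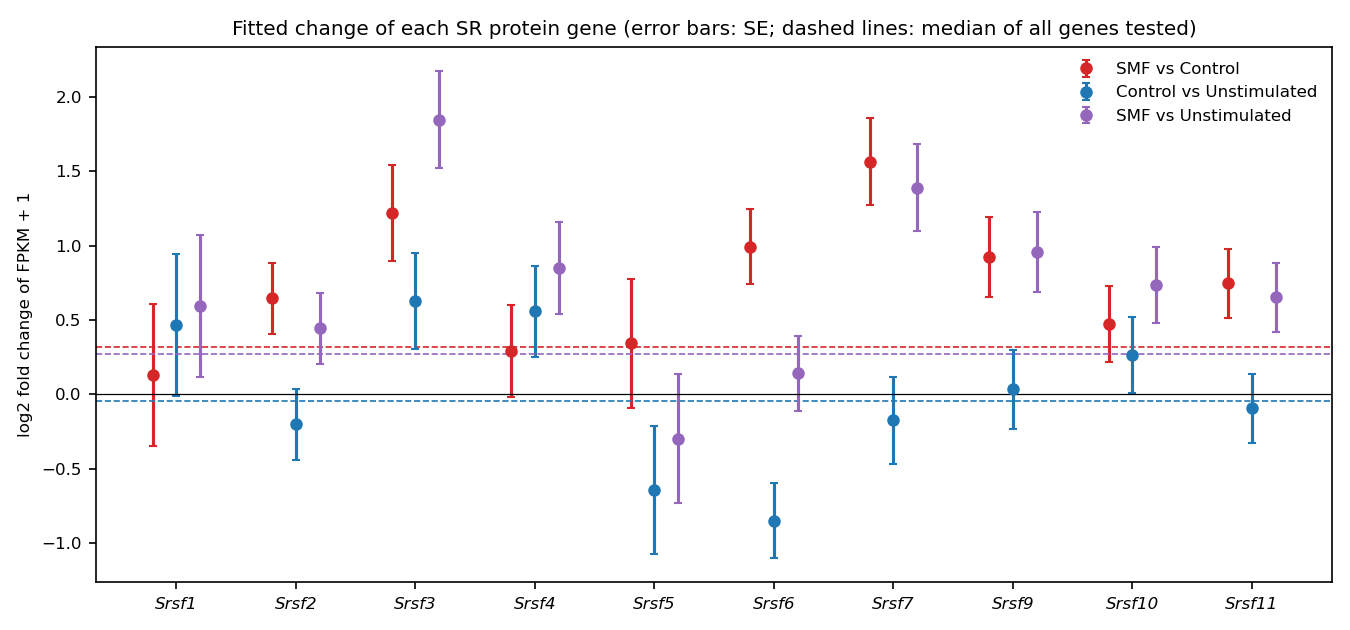
Fitted log2 fold change of FPKM + 1 for each SR gene in the 3 comparisons (points, with SE as error bars), and the median over all genes tested in each comparison as a dashed line of the same colour. For SMF against Control the points run from 0.13 in *Srsf1* to 1.56 in *Srsf7*, and for Control against Unstimulated from -0.85 in *Srsf6* to 0.63 in *Srsf3*.

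Culture with stimulation but without magnets moved no member past both limits. Between Control and Unstimulated cells 0 of the 10 members were called higher, when 12.3% of all genes tested were, and 0 were called lower, when 12.6% were. No member had an adjusted p under 0.05 in limma, and 1271 of all genes (8.48%) had one. An unadjusted p up to 0.05 was found in 0 members with a positive and 1 with a negative change, and in 13.4% and 13.5% of all genes tested. The libraries did not overlap in 5 members, with Control above Unstimulated in 3 (24.8% of all genes tested) and below in 2 (26.6%). The fitted change was above 0 in 5 members and in 47.8% of all genes tested. The median log2 fold change of the members was -0.03, beside -0.05 over all genes.

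*Srsf6* was the member with the small p: it was at 81.8 and 78.4 FPKM in Unstimulated 1 and 2 and at 46.2 and 41.8 in Control 1 and 2, a log2 fold change of -0.85 ± 0.25 (SE, adjusted p = 0.0915, limma). The change was nearly the same within each run folder, -0.81 in June 2017 and -0.89 in November 2017. *Srsf3* was at 32.2 and 42.8 FPKM in Unstimulated and 72.6 and 46.2 in Control libraries (0.63 ± 0.32, SE), with a change of 1.15 in June and 0.11 in November. *Srsf5* changed by -0.64 ± 0.43 (SE), with -0.90 in June and -0.38 in November, and without Unstimulated 2 it was called lower at -1.22. *Srsf1* was at 59.3 and 22.2 FPKM in Unstimulated libraries, the widest relative spread of any member, and changed by -0.10 in June and by 1.02 in November. Without Unstimulated 1 it was called higher at 1.15. The fits that leave out a library assume that the remaining library of that group varies like those of the other groups. Within the run folders, Control was above Unstimulated in 4 of 10 within the June folders and in 6 of 10 within the November folders, with medians of -0.07 and 0.05, and 8 of 10 had the same sign in both. These counts by folder were not made over all genes tested, so how usual they are is not known. At the opposite strand of *Srsf1*, *Gm11508* was listed at 400 and 247 FPKM in Unstimulated libraries and was called higher in Control cells (1.47 ± 0.27, SE, adjusted p = 0.0291, limma). This call too rests on the bases shared with *Srsf1* alone.

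Between SMF and Unstimulated cells the same 2 genes, *Srsf3* and *Srsf7*, were called higher out of 10, when 22.4% of all genes tested were called higher, and 0 members were called lower, when 14.8% were. *Srsf3* changed by 1.85 ± 0.32 (SE, adjusted p = 0.0138, limma), from 32.2 and 42.8 FPKM to 133 and 140. *Srsf7* changed by 1.39 ± 0.29 (SE, adjusted p = 0.0219, limma), from 26.8 and 25.8 FPKM to 67.1 and 74.3. *Srsf9* changed by 0.96 ± 0.27 (SE, adjusted p = 0.0483, limma), from 39.7 and 38.9 FPKM, and stayed under the fold limit. These 3 members had an adjusted p under 0.05, as did 23.6% of all genes tested. The SMF libraries lay above the Unstimulated libraries in 8 members (39.7% of all genes tested), below them in 0 (26%), and *Srsf1* and *Srsf5* overlapped. The fitted change was above 0 in 9 members (56% of all genes tested), and the unadjusted p was up to 0.05 in 6 with a positive (23.3%) and 0 with a negative change (15.8%). The median of the members was 0.69, beside 0.27 over all genes. Without Unstimulated 1 the members called were *Srsf1*, *Srsf3*, *Srsf4* and *Srsf7*, and without SMF 2 they were *Srsf3*, *Srsf4*, *Srsf7* and *Srsf9*. Both this comparison and that of SMF with Control use the same SMF libraries, and both comparisons with Unstimulated cells share those libraries too.

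The members have 78 annotated transcripts in the files, 26 protein coding, 14 marked for nonsense-mediated decay, 23 with a retained intron and 15 processed transcripts without an open reading frame. Of these, 15 were at 0 in all 6 libraries and 42 took at least 10% of the FPKM of their gene in at least 1 library. The share of protein-coding transcripts in the FPKM of a gene was tested in 9 members, since *Srsf7* has a coding transcript alone. From Unstimulated to Control cells this share was called changed, by 10 percentage points or more with an unadjusted p up to 0.05 in limma, in 1 of 9 members, when 7.16% of 6187 genes were. From Control to SMF cells it was called in 0 of 9 (7.06% of genes) and from Unstimulated to SMF cells in 1 of 9 (10.5% of genes), and both called shares were higher, as in 4.43% and 7.03% of genes against 3.99% for SMF over Control. No share of a member had an adjusted p under 0.05. The fitted share was higher in Control than in Unstimulated cells in 8 of 9 members, with a median of 16.3 points, and higher in SMF than in Unstimulated cells in 8 of 9, with a median of 18.1 points. Between SMF and Control cells it was higher in SMF cells in 5 of 9, with a median of 2.27 points. For Control against Unstimulated the higher shares included *Srsf9* at 0.78 and *Srsf11* at 1.48 points, while *Srsf4* stood at -36.0 points. The fraction of all genes with a higher fitted share was not counted, so these counts of members have no background beside them. The medians over all genes were 0 points in each comparison, and over the genes whose fitted share differed they were 1.89 points for Control and 3.21 points for SMF against Unstimulated and 1.38 points for SMF against Control.

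**Figure D4:**
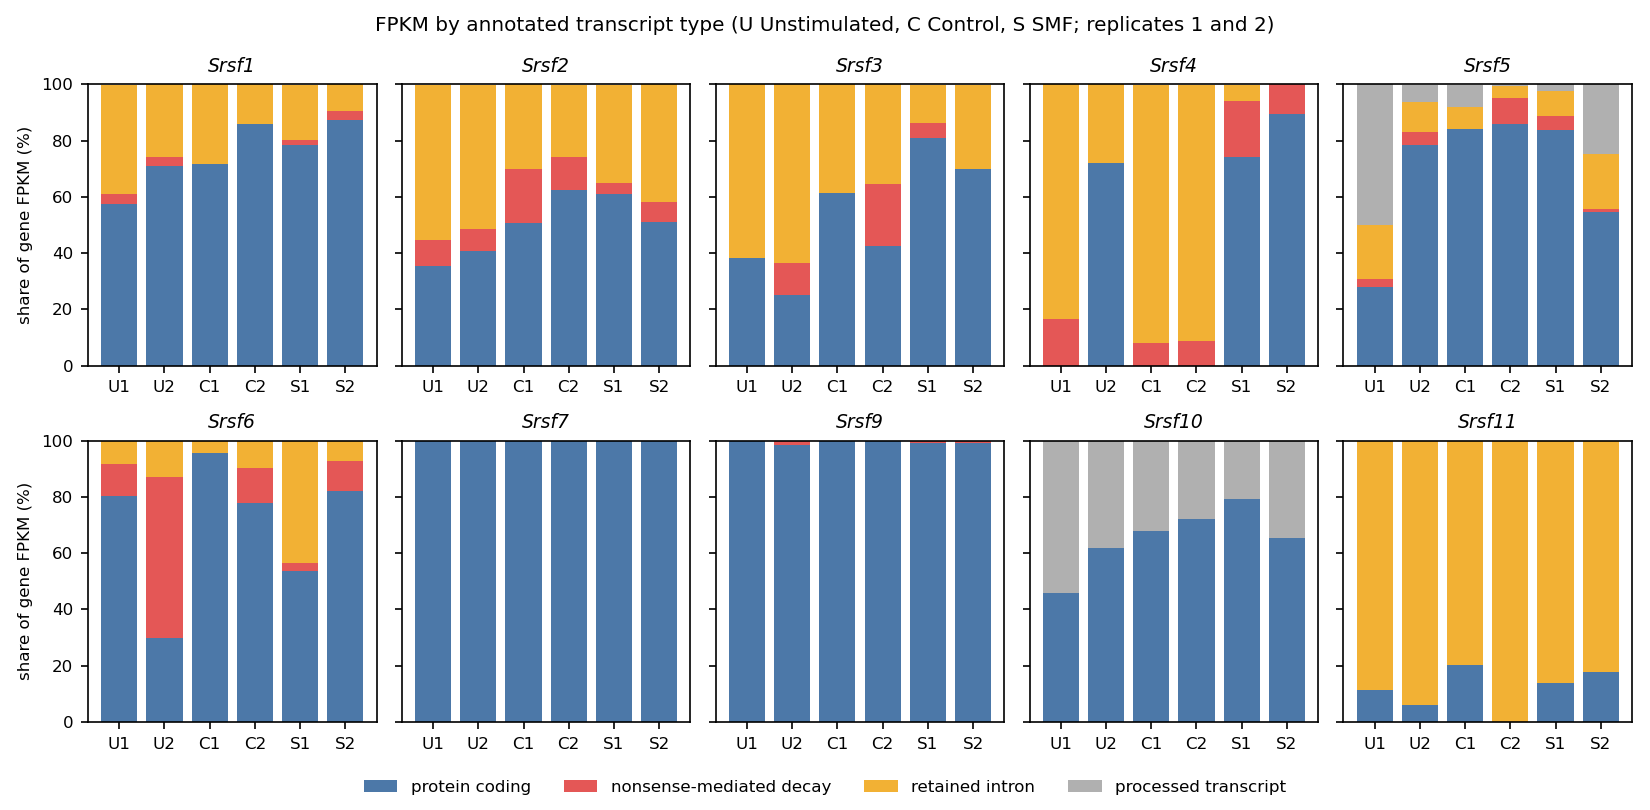
Share of the FPKM of each SR gene (percent, vertical axis) on its protein-coding, nonsense-mediated decay, retained-intron and processed transcripts in each library (U Unstimulated, C Control, S SMF, replicates 1 and 2), as stacked bars. *Srsf7* was all coding by annotation, as its 1 transcript in the files is coding, and *Srsf9* was nearly all coding. *Srsf11* was mostly on retained-intron transcripts, and *Srsf4* switched between coding and retained-intron transcripts from library to library.

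*Srsf3* had a higher coding share in SMF than in Unstimulated cells. Its protein-coding share was 38.3% and 25.0% in Unstimulated 1 and 2, 61.5% and 42.6% in Control 1 and 2 and 80.8% and 70.1% in SMF 1 and 2, and the retained-intron share was 61.7% and 63.4%, 38.5% and 35.3%, and 13.8% and 29.8%. The groups did not overlap in either share. The coding share differed by 43.8 ± 9.65 points (SE) between SMF and Unstimulated cells, with an adjusted p of 0.256 in limma, a call lost without Unstimulated 2 or SMF 1. The difference between SMF and Control cells was 23.4 ± 9.65 points (SE, adjusted p = 0.775, limma), and that between Control and Unstimulated cells was 20.4 ± 9.65 points (SE, adjusted p = 0.879, limma), with 23.3 points within the June and 17.6 points within the November folders. Both were called with the run folder as a term (± 5.17 points SE, adjusted p = 0.459 and 0.555, limma) and with the replicate block (± 2.76 points SE, adjusted p = 0.366 and 0.407, limma). The retained introns were divided over *Srsf3*-203 (1.75% to 25.7%), *Srsf3*-204 (1.84% to 19.4%) and *Srsf3*-205 (7.70% to 23.4%). The decay transcript *Srsf3*-201, with the premature-stop exon printed above, held 11.6% in Unstimulated 2, 22.0% in Control 2 and 5.33% in SMF 1 and was at 0 in the other libraries. All transcripts that cover that stop codon, retained introns included, held 42.5% and 46.9% in Unstimulated, 14.1% and 45.7% in Control and 11.1% and 15.2% in SMF libraries. In FPKM, the coding transcript *Srsf3*-202 was at 12.3 and 10.7 in Unstimulated, 44.7 and 19.7 in Control and 107 and 98.2 in SMF libraries. Counting coding transcripts alone, *Srsf3* was called higher in Control than in Unstimulated cells as well (1.3 ± 0.42, SE, adjusted p = 0.122, limma).

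*Srsf2* carried the other called share. Its coding transcript *Srsf2*-201 held 35.3% and 40.7% in Unstimulated, 50.7% and 62.4% in Control and 61.0% and 51.2% in SMF libraries. The retained-intron transcript *Srsf2*-203 held 55.3% and 51.2%, 30.0% and 25.7%, and 35.1% and 41.9% in the same order. The coding share differed by 18.6 ± 6.16 points (SE, adjusted p = 0.627, limma) between Control and Unstimulated cells, with 15.3 points within the June and 21.8 points within the November folders. The call was lost without either Unstimulated library, without either SMF library, without Control 2 and with the replicate block (± 7.03 points SE, adjusted p = 0.847, limma), and it was made with the run folder as a term (± 4.87 points SE, adjusted p = 0.568, limma). The decay transcript *Srsf2*-204 held 19.3% and 11.9% in Control libraries, 8.51% and 6.18% in Unstimulated and 3.97% and 6.65% in SMF libraries, and with decay transcripts counted as coding the share was lower in SMF than in Control cells by the fit (-10.7 ± 3.47 points, SE, adjusted p = 0.645, limma).

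The split of *Srsf4* changed from library to library. The coding transcript *Srsf4*-202 was listed at 0 in Unstimulated 1, Control 1 and Control 2 and held 71.9% in Unstimulated 2 and 74.2% and 89.5% in SMF 1 and 2. The retained-intron transcript *Srsf4*-201 held 83.5% and 28.1% in Unstimulated, 91.9% and 91.3% in Control and 5.87% and 0% in SMF libraries. The coding share differed by 81.8 ± 27.9 points (SE, adjusted p = 0.654, limma) between SMF and Control cells. This missed the p limit, and it passed when either Unstimulated library was left out. The decay transcript *Srsf4*-203, which holds the exon printed above, took 16.5% and 0% in Unstimulated, 8.05% and 8.71% in Control and 18.7% and 10.5% in SMF libraries. The facing gene *Gm12992* was at 415 and 394 FPKM in Unstimulated, 769 and 7.70 in Control and 3.01 and 350 in SMF libraries, and the shared bases lie in the last exon of *Srsf4*.

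*Srsf6* and *Srsf5* split differently between the libraries of one group. The coding transcript *Srsf6*-203 held 75.7% and 29.7% in Unstimulated, 95.5% and 77.8% in Control and 53.6% and 80.4% in SMF libraries. The decay transcript *Srsf6*-201, with the exon printed above, held 57.4% in Unstimulated 2 and 0% to 12.5% in the other 5 libraries, and the retained-intron transcript *Srsf6*-204 held 43.6% in SMF 1 and 4.46% to 12.9% in the others. *Srsf5* had a coding share of 28.1% in Unstimulated 1 and 54.8% in SMF 2 and of 78.4% to 86.0% in the other 4 libraries. Its coding transcript *Srsf5*-205 held 0.604% and 56.9% in Unstimulated, 0% and 50.8% in Control and 13.7% and 49.2% in SMF libraries, where *Srsf5*-201 held 61.4% in Control 1 and 47.3% in SMF 1 and 1.85% to 11% in the other 4. In Unstimulated 1 the processed transcripts *Srsf5*-210 and *Srsf5*-206 held 32.3% and 17.3%, and the coding transcript *Srsf5*-203 held 23.4%, while *Srsf5*-206 held 18.4% in SMF 2. The coding transcript *Srsf5*-202 ranged from 1.13% to 22.7% and the retained-intron transcript *Srsf5*-212 from 0% to 11.4%. Transcripts that share most of their bases can take each other's reads in such estimates, and the part of this in the split was not tested.

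In *Srsf1* the coding share was 57.7% and 71.1% in Unstimulated, 71.8% and 86.0% in Control and 78.4% and 87.2% in SMF libraries, with differences of 14.5 ± 8.15 points (SE) for Control and 18.4 ± 8.15 points (SE) for SMF against Unstimulated cells. The Control share was higher by 14.2 points within the June folders and by 14.9 points within the November folders. The difference was called with the run folder as a term in the fit (± 4.002 points SE, adjusted p = 0.594, limma) and with the replicate number as a replicate block (± 2.01 points SE, adjusted p = 0.407, limma), as was that for SMF against Unstimulated cells in both fits. The coding transcripts were *Srsf1*-205, at 10.8% to 77.3%, and *Srsf1*-201, at 9.94% to 46.8%. The retained-intron transcript *Srsf1*-203 was at 21.5% and 19.2% in Unstimulated, 0% in both Control and 8.80% and 5.50% in SMF libraries, while the other one, *Srsf1*-206, was at 17.4% and 6.66%, 28.2% and 14.0%, and 10.8% and 3.93% in the same order. All retained-intron transcripts of *Srsf1* together held 38.9% and 25.8% in Unstimulated, 28.2% and 14.0% in Control and 19.6% and 9.43% in SMF libraries. *Srsf11* was the reverse: the retained-intron transcript *Srsf11*-211, of 521 bases, held 63.1% and 54.3% in Unstimulated, 55.1% and 59.5% in Control and 69.4% and 71.7% in SMF libraries, and all coding transcripts together held 0.125% to 20.2%. The coding transcript *Srsf11*-202 held 15.7% in SMF 2 and was listed at 0 in the other 5 libraries, and *Srsf11*-204 held 0.00392% to 12.4%. The other retained-intron transcripts were *Srsf11*-205 (0% to 11.9%), *Srsf11*-208 (0% to 14.2%), *Srsf11*-213 (0% to 19%) and *Srsf11*-214 (0.872% to 11.3%). The level of *Srsf11* is thus mostly the level of this short transcript, which stood at 64.5 and 51.8 FPKM in Unstimulated, 47.0 and 59.5 in Control and 109 and 111 in SMF libraries. *Srsf10* had a coding share of 45.7% and 62.0% in Unstimulated, 68.0% and 72.3% in Control and 79.3% and 65.5% in SMF libraries, spread over *Srsf10*-204 (17.4% to 41.5%), *Srsf10*-205 (12.5% to 27.0%), *Srsf10*-202 (3.0% to 15.5%) and *Srsf10*-203 (0% to 22.5%). Its processed transcripts *Srsf10*-206, at 20.2% in Unstimulated 1 and 23.0% in Control 1, and *Srsf10*-207, at 19.8% and 24.4% in SMF 1 and 2, were among the rest, as were *Srsf10*-208, at 0.0202% to 12.1%, and *Srsf10*-210, at 0% to 12.5%. *Srsf9*-201, which is coding, held 98.4% to 100% of its gene in all libraries.

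Coverage was uneven along the genes with the called changes. In *Srsf7*-201, exons 2 and 3 of 8 had a coverage of 8.33 and 10.8 reads per base in Control 1, while exons 4 and 5 had 0 and the last exon, which makes up 1514 of the bases, had 0.784. In SMF 1 the same exons had 83.4, 102, 34.3, 14.0 and 4.95. In *Srsf3*-202, exon 3 of 6 had the highest coverage in all 6 libraries, with 23.5 in Control 1, 19.1 in Control 2, 124 in SMF 1 and 107 in SMF 2, and the last exon, of 1990 bases, had 1.88, 2.44, 19.7 and 16.8. The value of *Srsf7* in the shallow libraries rests on 4.98 kb of aligned bases in Control 1 and 5.51 kb in Unstimulated 1, against 10.2 kb in each of Control 2 and Unstimulated 2 and 47.6 and 46.3 kb in SMF 1 and 2.

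Near-identical copies elsewhere in the genome could take or give reads for 3 members. *Gm9761*, a processed pseudogene 99.6% identical to *Srsf3* over 492 bases, was at 18.7 and 6.55 FPKM in Unstimulated, 16.9 and 11.1 in Control and 47.8 and 49.5 in SMF libraries, with both SMF libraries above both Control libraries as in *Srsf3*. *Gm12966*, a processed pseudogene 98.6% identical to *Srsf5* over 813 bases, was at 46.0 and 32.5 FPKM in Unstimulated, 60.9 and 37.3 in Control and 33.5 and 33.9 in SMF libraries. The copies of *Srsf10*, *Gm9134* and *Gm5446*, were at 9.06 FPKM or less. The share of reads that moved between a member and its copy was not measured, and the values of *Srsf3* and *Srsf5* are uncertain to that extent.

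Around the members, 3 of the kinases that phosphorylate the SR tail were called lower in Control than in Unstimulated cells. Of the 34 genes of the SR pathway other than the members (7 kinases, the import receptor gene *Tnpo3*, *Srsf12*, 17 SR-related or partner genes and 8 decay factors) 32 were tested, *Srpk3* at 0 to 2.09 FPKM and *Srsf12* at 0 to 2.28 FPKM being too low. In Control against Unstimulated cells 3 of 6 kinases were called lower and 0 higher, beside 12.6% and 12.3% of all genes tested. *Clk1*, a nuclear kinase whose own transcript keeps introns that are spliced out on demand, was at 156 and 118 FPKM in Unstimulated, 42.6 and 41.2 in Control and 72.5 and 76.5 in SMF libraries, with no overlap between any 2 groups. Its log2 fold change from Unstimulated to Control was -1.67 ± 0.26 (SE, adjusted p = 0.0207, limma), and that from Control to SMF was 0.81 ± 0.26 (SE, adjusted p = 0.184, limma). *Clk2* was at 33.1 and 26.7, 13.0 and 14.6, and 19.4 and 20.8 FPKM in the same order, with -1.06 ± 0.32 (SE, adjusted p = 0.0991, limma) from Unstimulated to Control. *Srpk1*, the main cytoplasmic kinase, was at 45.4 and 40.8 FPKM in Unstimulated, 12.1 and 23.1 in Control and 32.8 and 46.0 in SMF libraries. It was called lower in Control against Unstimulated cells (-1.31 ± 0.40, SE, adjusted p = 0.101, limma) and higher in SMF against Control cells (1.16 ± 0.40, SE, adjusted p = 0.197, limma). In SMF against Unstimulated cells, *Clk1* (-0.86 ± 0.26, SE), *Clk2* (-0.54 ± 0.32, SE) and *Srpk1* (-0.14 ± 0.40, SE) were not called. *Srpk2* was at 83.7 and 98.3, 65.1 and 49.9, and 30.5 and 31.7 FPKM, and was called lower in SMF against Unstimulated cells (-1.51 ± 0.28, SE, adjusted p = 0.0160, limma). *Clk3* and *Clk4* were called in no comparison, with log2 fold changes between -0.44 and 0.47.

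**Figure D5:**
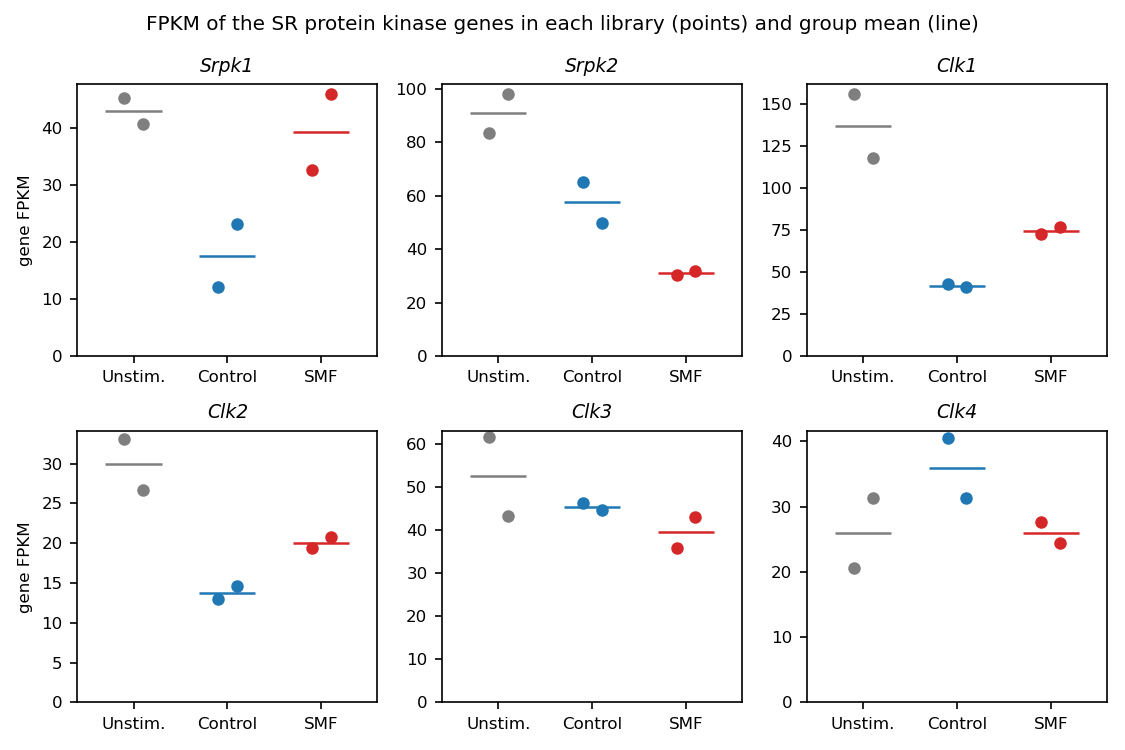
FPKM (vertical axis from 0, own scale for each gene) of 6 SR protein kinase genes in the 2 Unstimulated, 2 Control and 2 SMF libraries as points, with the group mean as a line. *Clk1* was at 118 to 156 FPKM in Unstimulated, 41.2 to 42.6 in Control and 72.5 to 76.5 in SMF libraries.

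Of the whole pathway list, 5 of 32 genes were called higher and 0 lower in SMF against Control cells, beside the 12.5% and 5.72% of all genes tested. The 5 were *Srpk1*, *Tra2a* (1.34 ± 0.43, SE), which encodes a partner of the SR proteins at exonic enhancers, *U2af2* (1.29 ± 0.29, SE), the large subunit of the factor that recognises the end of the intron, and the decay factors *Upf3b* (1.08 ± 0.43, SE) and *Smg5* (1.94 ± 0.49, SE), none with an adjusted p under 0.05 in limma. Relative to the median of all genes these changes were 0.85 for *Srpk1*, 1.03 for *Tra2a*, 0.97 for *U2af2*, 0.76 for *Upf3b* and 1.62 for *Smg5*. In Control against Unstimulated cells 2 of 32 were called higher and 5 lower, beside 12.3% and 12.6% of all genes tested. The genes that rose were *U2af1*, the small subunit of the same factor (from 16.4 and 23.7 to 105 and 123 FPKM, 2.47 ± 0.29, SE, adjusted p = 0.0125, limma), and *Rnps1*, a component of the exon junction complex (1.58 ± 0.29, SE, adjusted p = 0.0298, limma). Besides the 3 kinases, *Son*, a scaffold of nuclear speckles (-1.66 ± 0.31, SE, adjusted p = 0.0298, limma), and *Smg1*, the kinase of nonsense-mediated decay (-1.35 ± 0.33, SE, adjusted p = 0.0577, limma), were called lower. In SMF against Unstimulated cells 7 of 32 were called higher, *Tra2a*, *Srrm1*, *U2af1*, *U2af2*, *Rnps1*, *Upf3a* and *Smg5*, near the 22.4% of all genes tested, and 2 lower, *Srpk2* and *Son*, beside 14.8%. The median log2 fold change of the 32 genes was 0.50 for SMF against Control, -0.02 for Control against Unstimulated and 0.45 for SMF against Unstimulated cells. *Tnpo3* was called in no comparison, with changes of 0.22 to 0.44.

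The genes nearest to the mean profile of the 10 members were sought among 2779 protein-coding genes averaging 20 FPKM or more. The measure was the root mean square distance of the centred log2(FPKM + 1) values from that mean profile over the 6 libraries. The nearest were *Mtpn*, at a distance of 0.079, *Sart1*, a splicing factor of the tri-snRNP, at 0.081, and *Arf6*, a small GTPase, at 0.091. *Sart1* was at 18.99 and 14.3 FPKM in Unstimulated, 17.2 and 16.2 in Control and 29.0 and 31.0 in SMF libraries. The members themselves lay farther from their mean profile, at 0.136 (*Srsf2*) to 0.519 (*Srsf3*), so these genes follow the average and not each member. The distance is a description over 6 libraries and not a test.

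All 10 members were matched by symbol to the RefSeq promoter table (GRCm38.p6), some with several start sites, and the 250 bases upstream of the start are shown for the 2 genes called higher in SMF cells, *Srsf3* on the plus strand (chr17:29032410-29032659) and *Srsf7* on the minus strand (chr17:80207306-80207555).
Srsf3: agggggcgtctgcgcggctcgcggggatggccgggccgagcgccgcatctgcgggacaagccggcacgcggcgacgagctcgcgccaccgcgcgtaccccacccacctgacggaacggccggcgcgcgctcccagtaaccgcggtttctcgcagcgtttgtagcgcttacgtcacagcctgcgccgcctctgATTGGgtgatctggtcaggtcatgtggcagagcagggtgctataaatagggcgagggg
Srsf7: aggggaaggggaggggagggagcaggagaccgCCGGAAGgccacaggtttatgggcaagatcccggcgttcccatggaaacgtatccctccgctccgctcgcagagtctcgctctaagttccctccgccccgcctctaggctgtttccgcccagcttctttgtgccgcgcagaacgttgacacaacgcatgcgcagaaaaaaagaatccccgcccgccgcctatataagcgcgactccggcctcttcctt
The capitals mark matches to the motifs searched on both strands, the CCAAT box (CCAAT, on the other strand in *Srsf3*) and an ETS site (CCGGAAG). The CCAAT letters were found upstream of *Srsf2*, *Srsf3* and *Srsf10*, 3 of 10 members, and in 33.8% of all 32851 promoters. The ETS letters were found upstream of *Srsf4*, *Srsf5*, *Srsf7* and *Srsf11*, 4 of 10 members, and in 6.91% of all promoters. The E-box CACGTG was found in 0 members and in 6.02% of all promoters. A member was counted if any of its start sites matched, while the percentages are shares of single promoters, so the 2 are not like for like. *Srsf3* and *Srsf7* shared none of the 3 motifs. The GC content of the stretches shown was 69.6% in *Srsf3* and 61.6% in *Srsf7*, beside a median of 52.4% over all promoters.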

How the data were processed

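For each library the authors ran StringTie 1.3.5 (--fr, GENCODE M19, GRCm38/mm10) and deposited FPKM, TPM and coverage in reads per base for each annotated transcript. The submitters' processing notes also name Trimmomatic 0.36 and HISAT2, whose version is not given in the sources used here. In a deposited FPKM table of the series, 3 columns carry names of no sample and were left out. No read counts were in the files used, so no counting interval is given, and a 0 is reported as a listing at 0.

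Gene FPKM was summed over transcripts. Genes whose mean reached 1 FPKM were fitted with limma 3.58.1 (R 4.3.3) on log2(FPKM + 1), all 3 groups together with a variance trend, leaving 3 residual degrees of freedom. The protein-coding share was fitted likewise without a trend, over 6187 genes above 0 in all libraries with both coding and other transcripts, and called at 10 points and p of at most 0.05. P-values were adjusted by Benjamini-Hochberg over all genes. Both fits were run on simulated normal values, for the shares with the same spread in every gene. Real shares are bounded and differ in spread between genes, so the error rate of the share calls was not tested. Transcript types came from GENCODE M21, and copies were found with minimap2 over at least 200 bases at 90% identity. Tables were made with Python 3.11.15 and pandas 2.3.3.

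The members, the pathway and marker lists and the tests were chosen with earlier results of these data known. The genes named were all members, their transcripts with at least 10% of the gene in 1 library, all kinases and every called gene of the pathway list. The 3 genes nearest to the mean profile of the members were named too. The facing genes were chosen after their values were seen. 1 item of the marker lists is not reported here.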

Additional observations from a re-analysis of the deposited data

How the results depend on the processing

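Counts and medians were recomputed with other pseudocounts, filters, scalings, variance models and call rules, from coding transcripts alone, with a replicate block and without each library in turn. The count of members higher in SMF than in Control cells, 2, became 1 with the libraries shifted to one median, 4 with gene TPM, 0 at an adjusted p under 0.05, and 1 to 3 without single libraries. The count for Control against Unstimulated cells, 0, became 1 with coding transcripts only and ranged from 0 to 1 higher and 0 to 1 lower without single libraries, and that for SMF against Unstimulated cells, 2, became 4 with coding transcripts only and ranged from 2 to 4. For SMF against Control, 877 of all 14991 genes were called higher with the libraries shifted to one median and 2211 with gene TPM. With coding transcripts only, 1351 of 9559 genes were called higher for Control and 2921 for SMF against Unstimulated. The median for SMF against Control was 0.35 after the shift to one median, beside -0.02 over all genes, and 0.69 to 0.71 without single libraries. With coding transcripts only it was 0.77, beside 0.62 over all genes. That for SMF against Unstimulated was then 1.07, beside 0.72 over all genes. The count of changed coding shares for SMF against Control, 0, was 2 with decay transcripts counted as coding, 1 at a mean of at least 5 FPKM, 1 with genes of one share in all libraries left out (an alternative added after the data were seen) and 0 to 1 without single libraries. That for Control against Unstimulated, 1, was 2, 1 and 0 under the same settings, 0 at an adjusted p under 0.05 and 0 to 1 without single libraries. That for SMF against Unstimulated, 1, was 2, 2 and 1, 0 at an adjusted p under 0.05 and 0 to 1 without single libraries. Over all genes, in the same order of comparisons, 415, 445 and 625 of 6187 shares were called with decay transcripts counted as coding. The counts were 381, 408 and 594 of 5092 at a mean of at least 5 FPKM. They were 448, 475 and 665 of 5379 with genes of one share in all libraries left out. The cause of these shifts in the member counts was not tested. *Srsf11* was the share called without Control 1 for SMF against Control.

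Directions turned for members that were not called. With the libraries shifted to one median *Srsf1* (-0.21) and *Srsf4* (-0.051) turned for SMF against Control and *Srsf6* (-0.11) for SMF against Unstimulated. With coding transcripts only *Srsf2* (0.36), *Srsf4* (-2.14) and *Srsf5* (0.21) turned for Control against Unstimulated and *Srsf5* (0.23) for SMF against Unstimulated, and with gene TPM *Srsf9* (-0.11) for Control against Unstimulated. The coding share of *Srsf6* turned to -14.8 points for SMF against Unstimulated with decay transcripts counted as coding. Without single libraries the level of *Srsf1* ranged from -0.22 to 1.15 for Control and from -0.095 to 1.28 for SMF against Unstimulated, that of *Srsf11* from -0.21 to 0.019 for Control against Unstimulated and that of *Srsf5* from -0.88 to 0.28 for SMF against Unstimulated. The coding share, in points, ranged for SMF against Control from -3.21 to 11 in *Srsf1*, -6.34 to 5.41 in *Srsf2*, -4.63 to 9.17 in *Srsf10* and -4.38 to 15.7 in *Srsf11*, for Control against Unstimulated from -8.57 to 11.5 in *Srsf11*, and for SMF against Unstimulated from -9.06 to 41.2 in *Srsf5*, -12.5 to 38.3 in *Srsf6* and -0.79 to 0.76 in *Srsf9*. A group left with 1 library was assumed to vary like the others.

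With the replicate number as a replicate block the level calls of members did not change, with 2, 0 and 2 called higher, while the coding share was called in 1 member for SMF against Control (*Srsf3*), in 2 for Control against Unstimulated (*Srsf1* and *Srsf3*, in place of *Srsf2*) and in 2 for SMF against Unstimulated (*Srsf1* and *Srsf3*). Samples of the same number deviated from their group means with correlations of 0.0963 for Unstimulated and Control, 0.0206 for Control and SMF and 0.0301 for Unstimulated and SMF over 14991 genes. The numbers follow the run folders for Unstimulated and Control libraries and not for SMF libraries, which share 1 folder. With the run folder as a term for those libraries, an alternative added after the data were seen, the level calls did not change. The coding share was then called in 1 member for SMF against Control (*Srsf3*), and in 3 each (*Srsf1*, *Srsf2* and *Srsf3*) for Control and for SMF against Unstimulated. With this term the share was called in 516 of 6187 genes for SMF against Control. It was called in 477 for Control and in 742 for SMF against Unstimulated. With the replicate block the counts over all genes were 422, 435 and 600 in the same order, beside 437, 443 and 649 with neither.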
